A study of Sus scrofa domesticus with 4 samples.

Results

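Solute carriers are membrane proteins that move sugars, amino acids, ions, metals, nucleosides and organic molecules into and out of cells and organelles. Their genes carry the symbol SLC with a family number, or SLCO for the organic anion carriers. The genes described here are those with such a symbol in the RefSeq annotation of the pig assembly Sscrofa11.1 whose RefSeq accession is the target of a probe on the array. There were 68 of them among 2459 genes that could be named in this way, with 142 of 43603 probes. By family number 66 were carriers of 29 families. The other two, SLC9A3R1 and SLC9A3R2, match the symbol but encode scaffold proteins that bind carriers, and they were kept apart.

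Cultured anterior pituitary cells of gilts (Large White x Polish Landrace, aged 7 to 8 months, 120 to 130 kg) were compared with and without adiponectin, a hormone of fat cells. Both groups came from pituitaries collected on days 10 to 12 of the oestrous cycle, were precultured with serum for 48 h and were then held for 24 h in serum-free medium with bacitracin. The treated group also received recombinant human adiponectin at 10 µg/ml. RNA of treated and control cells was hybridised together on 4 two-colour arrays. By the channel labels treated cells were red (Cy5) on arrays 1 and 3, whereas on arrays 2 and 4 they were green (Cy3). That reading gives every direction here unless another is stated. Pituitaries of 4 animals were used, and the labels do not tie an animal to an array, so p-values measure only the spread between these arrays, which may be technical. One label field names the same days a period of pregnancy, while the protocol describes cycling gilts.

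As background, each carrier family has a characteristic cargo. GLUT proteins (SLC2) let glucose pass down its gradient, and SLC5 members pull sugars or iodide in with sodium. The CAT proteins and their relatives (SLC7) carry cationic and neutral amino acids, some of them bound to an SLC3 heavy chain. SLC25 proteins sit in the inner mitochondrial membrane, ZnT proteins (SLC30) move zinc out of the cytosol, often into secretory granules, and ZIP proteins (SLC39) move it back. Adiponectin acts through AMPK in its classical target tissues, where glucose entry by GLUT4 and fatty acid uptake are well known responses.

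Most of the 68 matched genes gave a measurable signal in these cells. The annotation holds 365 genes with an SLC or SLCO symbol, most of which had no matched probe. The scanner software marks a spot as well above background by a test against the local background. A gene was counted as detected if 1 of its probes was so marked for treated cells on 3 or more arrays, or for control cells on 3 or more. By this rule 56 of 68 genes (82.4%) were detected, beside 80.6% of all named genes. In single classes 6 of 6 mitochondrial carriers were detected, 12 of 13 metal carriers, 14 of 15 carriers of other organic solutes and 4 of 5 carriers of nucleosides, nucleobases, vitamin C and nucleotide sugars. Lower counts were seen for sugar carriers (5 of 7), inorganic ion carriers (7 of 10) and amino acid and peptide carriers (6 of 10).

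The 12 genes without a detected probe included many carriers known from kidney, gut and liver. SLC2A2 encodes the glucose carrier GLUT2 of liver and beta cells, and SLC5A11 a sodium-coupled inositol carrier. SLC12A1 encodes the salt carrier of the thick ascending limb, and SLC15A1 the peptide carrier of the gut. SLC17A1, SLC22A8, SLC26A3 and SLC28A1 act mainly in epithelia, and SLC7A9 is the partner of SLC3A1 in renal cystine uptake. SLC7A3 (a cationic amino acid carrier) and SLC30A2 (a zinc carrier) also belonged to the group. Raw median intensities of their probes ran from 30 to 171 over both channels and all arrays, beside local backgrounds of 21 to 51. These genes did not meet the rule of 3 arrays by these probes and were not tested. Some were marked as well above background on fewer arrays, such as SLC17A1 for treated cells on 2. With either channel on at least 1 array, 64 of the 68 genes would count as detected, and 54 with 1 channel on all 4 arrays. A probe can miss a transcript.

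All 56 detected genes, which are 54 carriers and both scaffold genes, were tested with 105 probes, and 6 more detected probes were lost because their spots lay on background flagged as uneven. Counts over 56 genes or 105 probes below include the scaffold genes. Each gene is represented by its brightest tested probe. Ratios are log2 values of treated over control cells from a limma fit with a dye term, given with 95% intervals (4 arrays, unless stated otherwise). Ratios lie closer to 0 for dim probes, since an offset of 50 was added to each intensity. Ratios of a single array still hold the dye difference.

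The highest ratio among the carriers was that of SLC29A3 at 0.24 (0.09 to 0.38, a 1.18-fold value), and the lowest that of SLC7A2 at -0.19 (-0.34 to -0.04, 0.878-fold). SLC29A3 encodes ENT3, a nucleoside carrier of lysosomes and mitochondria, and SLC7A2 encodes CAT2, which takes up arginine and other cationic amino acids. None of these genes passed the threshold: 0 of 105 probes had an adjusted p under 0.05 by limma, where the background over all 25918 tested probes was also 0%, and the smallest adjusted p among them was 0.9999. The ratios of the 56 genes had a median of 0.02 (0.01 over the 1956 named genes tested), 35 were above 0 and 21 below 0, and 48 lay within 0.1 of 0. Of all named genes 53.6% were above 0. The split of the 56 genes was 41 above and 15 below 0 with median centring in place of loess, 26 and 30 with treated cells read as red throughout, and 27 and 28 without array 4. The median was -0.003 without array 4 and 0.03 without array 2.

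Without the correction, 4 of 105 probes had a p under 0.05 by limma. Of these, 3 were above 0 (2.86%, beside a background of 1.04% of all probes) and 1 was below 0 (0.952%, beside 1.72%). By brightest probes 1 gene was above 0 and 1 below 0, which is 1.79% of the 56 genes each, beside 1.12% and 0.971% of all named genes. The other two of the 4 probes were dimmer probes of SLC5A1 and SLC11A1, whose brightest probes had ratios of 0.01 and -0.07. These counts are too small to set the carriers apart from the background.

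The intervals rest on the spread between these 4 arrays under the main processing and the channel labels. They do not cover other choices. SLC7A2 had -0.52 with the scanner software's own log ratio, and SLC39A7 had -0.46 with treated cells read as red throughout. Both values lie outside the gene's interval. The whole interval stayed inside a 1.5-fold change for 56 of 56 genes, and inside a 1.2-fold change for 43. The interval's half-width ran from 0.142 to 0.233, with a median of 0.154. The interval held 0 for 54 genes, the other two being SLC29A3 and SLC7A2.

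**Figure D1:**
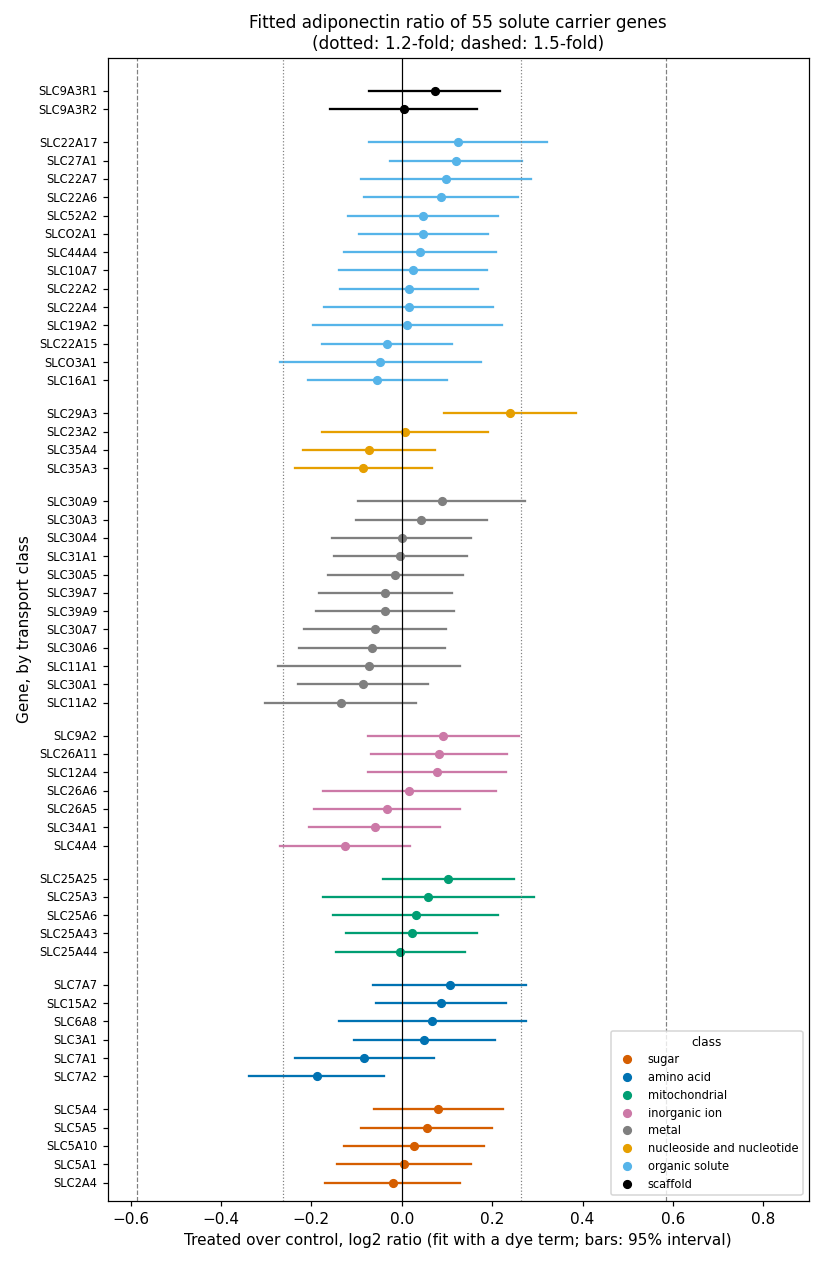
Fitted log2 ratio of treated over control cells (x axis) for 55 of the 56 tested genes (y axis; a gene not reported by name is left out), coloured by transport class, with 95% intervals as bars. All bars lie between the dashed lines of a 1.5-fold change, and only those of SLC29A3 and SLC7A2 leave out 0.

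Array values show what lies behind these extremes. For SLC29A3 the normalized log2 intensity on arrays 1 to 4 was 9.19, 10.00, 11.82 and 12.17 in treated cells and 9.41, 9.38, 11.94 and 11.51 in control cells. The ratios were -0.22, 0.63, -0.12 and 0.67, so treated cells were lower on both arrays with treated RNA in Cy5 and higher on both with treated RNA in Cy3. Its fitted value is the mean of these ratios, with a p of 0.005 by limma (adjusted p = 0.9999). With 1 array left out it ran from 0.21 to 0.26, and without array 2 it passed the threshold (0.25, adjusted p = 0.0442 by limma, in a fit that called 2.86% of all probes). In that fit a single array carries its dye orientation. The ratio was 0.12 with spots of uneven background kept.

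SLC7A2 had lower values in treated cells on each array, with log2 intensities of 6.89, 6.65, 6.66 and 6.50 in treated and 7.11, 6.84, 6.96 and 6.54 in control cells. The ratios were -0.23, -0.18, -0.30 and -0.04, and the p was 0.0192 by limma (adjusted p = 0.9999). Its probe was dim, with raw intensities of 58 to 114, and was well above background in treated cells on 3 arrays and in control cells on 4. Its value moved with the background step: it was -0.34 without the offset, -0.28 without background subtraction and -0.52 with the scanner software's own log ratio.

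In all, 5 of the 56 genes had 1 sign on every array. SLC26A11 and SLC27A1 were above 0 throughout (3.57% of the 56 genes, beside 3.58% of named genes), and SLC7A2, SLC11A2 and SLC30A1 were below 0 throughout (5.36%, beside 1.79%). SLC27A1, which encodes the fatty acid carrier FATP1, had a ratio of 0.12 (-0.03 to 0.27). Its log2 intensities were 8.64, 8.60, 9.40 and 9.25 in treated and 8.50, 8.52, 9.32 and 9.07 in control cells, a gap of 0.14, 0.08, 0.08 and 0.18 on arrays 1 to 4. SLC11A2, the iron and divalent metal carrier DMT1, had a ratio of -0.13 (-0.30 to 0.03). Its array values were -0.01, -0.29, -0.20 and -0.04, and its other probe had -0.07. SLC30A1, the zinc exporter ZnT1 of the cell surface, had array values of -0.03, -0.17, -0.05 and -0.10. Its fitted ratio was -0.08 (-0.23 to 0.06). The other probes of SLC26A11 and SLC30A1 had 0.001 and -0.01, with array values on both sides of 0.

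**Figure D2:**
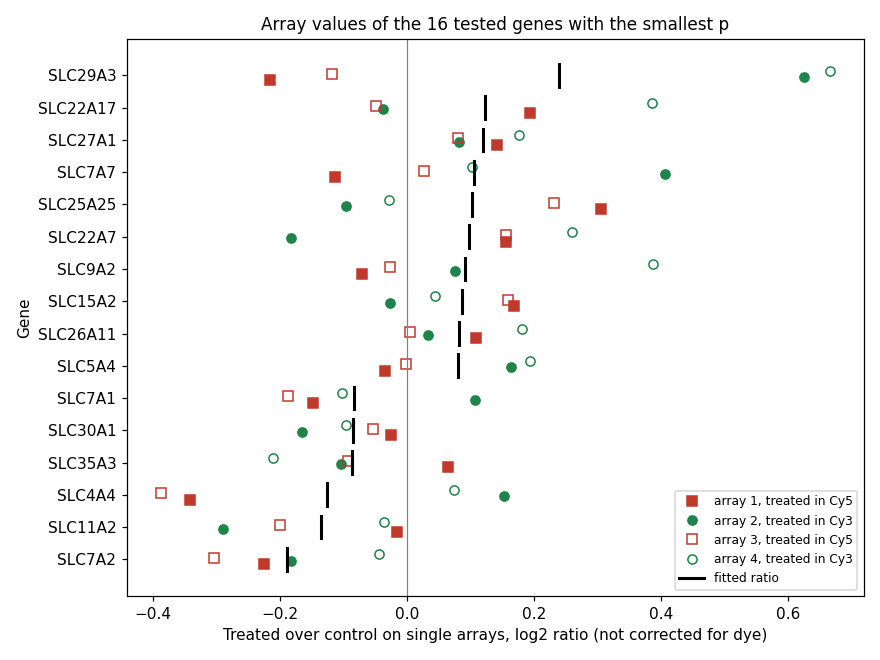
Log2 ratio of treated over control cells on each array (x axis, not corrected for dye) for the 16 genes with the smallest p (y axis), with squares for treated RNA in Cy5, circles for treated RNA in Cy3 and black bars for the fitted ratio. The array values of SLC29A3 fall into a pair below 0 and a pair above 0.6, whereas those of SLC27A1, SLC26A11, SLC30A1, SLC11A2 and SLC7A2 keep to 1 side of 0.

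Among the sugar carriers, 4 of 5 tested genes were above 0, with a class median of 0.03. SLC2A4, the insulin-regulated glucose carrier GLUT4, had a ratio of -0.02 (-0.17 to 0.13), and its array values of 0.18, -0.19, 0.04 and -0.11 were above 0 only with treated RNA in Cy5. Its other probes had 0.08 and 0.02, and with median centring the brightest had 0.03. SLC5A1, the sodium-coupled glucose carrier SGLT1, had 0.01 (-0.14 to 0.15). A dimmer probe of it had 0.19 (0.04 to 0.33, adjusted p = 0.9999 by limma). Its array values were 0.12, 0.27, 0.07 and 0.28. That probe was well above background in control cells on only 2 arrays, and the remaining tested probe had 0.01. The related SLC5A4 had 0.08 (-0.06 to 0.22), SLC5A5, the iodide carrier, 0.06 (-0.03 by its other probe) and SLC5A10 0.03. SLC5A5 is placed here by its family number, not by its cargo.

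The amino acid carriers had 4 of 6 tested genes above 0 and a median of 0.06. This median was lower without array 1 (0.004), array 2 (0.02) or array 4 (0.02), and was 0.01 with uneven background kept. SLC7A7, the light chain y+LAT1, had 0.11 (-0.06 to 0.28), and its 4 probes were all above 0, from 0.01 to 0.11. The array values of the brightest were -0.11, 0.41, 0.03 and 0.10, so array 2 was the highest. The proton-coupled peptide carrier gene SLC15A2 had 0.09, the creatine carrier gene SLC6A8 0.07 and the heavy chain gene SLC3A1 0.05, with 0.04 for its other tested probe. SLC7A1, which encodes the widespread cationic amino acid carrier CAT1, had -0.08 (-0.24 to 0.07) and array values of -0.15, 0.11, -0.19 and -0.10. Both tested carriers of the CAT type were thus below 0, although SLC7A1 had 0.01 with median centring. Their difference from the class was not tested.

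Of the 6 mitochondrial carriers 5 were above 0, with a median of 0.03. Phosphate enters the matrix through the product of SLC25A3, which had 9 tested probes with ratios from -0.05 to 0.06, 6 of them above 0. Its brightest probe had 0.06 (-0.17 to 0.29) from 3 arrays. SLC25A6, an ADP/ATP carrier, had 0.03 (-0.15 to 0.21), and its other tested probes 0.01 and 0.03. Uneven background removed 3 of its 6 detected probes and 1 of the 10 of SLC25A3, so these very bright genes were measured on part of their probes. SLC25A25, a carrier of ATP-magnesium and phosphate, had 0.10 (-0.04 to 0.25) with array values of 0.31, -0.10, 0.23 and -0.03. SLC25A43 had 0.02 and -0.01 by its probes. SLC25A44, linked to branched-chain amino acids, had -0.003 (-0.15 to 0.14). Class medians on arrays 1 to 4 were 0.22, -0.13, 0.26 and -0.04, above 0 only where treated RNA was in Cy5.

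For the inorganic ion carriers 4 of 7 tested genes were above 0, with a median of 0.02. This median was -0.05 without array 1 and 0.08 without array 3. The lowest was SLC4A4, the sodium bicarbonate cotransporter NBCe1, at -0.13 (-0.27 to 0.02). Its array values were -0.34, 0.15, -0.39 and 0.075, below 0 only with treated RNA in Cy5. The exchanger gene SLC9A2 (NHE2) had 0.09 (-0.08 to 0.26) and 0.13 by its other probe, and both probes were highest on array 4, at 0.39 and 0.39. SLC26A11 had 0.08 (-0.07 to 0.23), SLC12A4, the potassium chloride cotransporter KCC1, 0.08 and the anion exchanger gene SLC26A6 0.02. SLC26A5, which encodes prestin, had -0.03 and SLC34A1, a renal phosphate carrier, -0.06. Both of these probes were dim, with raw intensities of 77 to 128 and 88 to 139.

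The metal carriers were the class with most genes below 0: 9 of 12 tested, with a median of -0.04 beside 0.01 for all named genes. Besides SLC11A2 and SLC30A1 these were SLC11A1 at -0.07, SLC30A6 at -0.07, SLC30A7 at -0.06, SLC39A9 at -0.04, SLC39A7 at -0.04, SLC30A5 at -0.01 and the copper carrier gene SLC31A1 at -0.003. SLC30A5, SLC30A6 and SLC30A7 encode the ZnT proteins of the early secretory pathway, and both probes of SLC30A5 and of SLC30A6 were below 0. SLC39A7, which encodes ZIP7 and releases zinc from the endoplasmic reticulum, had 4 probes from -0.04 to 0.05. Those above 0 were SLC30A9 at 0.09 (-0.10 to 0.27), whose other probe had -0.07, SLC30A3 at 0.04 and SLC30A4 at 0.0001. The class median was below 0 on each array, at -0.02, -0.04, -0.009 and -0.04. Medians of all named genes on these arrays were 0.02, 0.02, -0.013 and 0.01. On array 3 the metal carriers were thus not below all named genes. No test of this class as a whole was made, and its median was 0.03 if treated cells are read as red throughout.

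The probes of SLC11A1 disagreed. This gene encodes NRAMP1, a metal carrier of the phagosomes of macrophages. Its brighter probe had array values of 0.11, -0.59, 0.31 and -0.12. The dimmer probe had 0.17, 0.11, 0.16 and 0.17. Its fitted ratio was 0.15 (0.01 to 0.29, adjusted p = 0.9999 by limma), and the mean of the pair was 0.04. With spots of uneven background kept the brighter probe had 0.05. Macrophage marker genes had a median of -0.02 (4 tested, 2 above 0), with AIF1 at -0.04, CD14 at 0.01, CD86 at -0.09 and TYROBP at 0.01, and any part of macrophages in the SLC11A1 values was not tested. In RNA from whole cultures, fewer cells of a type and less RNA per cell cannot be told apart.

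Beside SLC29A3, the carriers of nucleosides and related molecules included SLC35A3, the Golgi carrier of UDP-N-acetylglucosamine used in protein glycosylation. Its ratio was -0.09 (-0.24 to 0.07), with -0.12 for its other probe. SLC35A4 had -0.07 and 0.01 by its probes, and SLC23A2, the vitamin C carrier SVCT2, had 0.01 (-0.18 to 0.19).

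Of the 14 carriers of other organic solutes 11 were above 0, with a median of 0.03. Their median was -0.01 without array 4 and 0.12 without array 2. SLC22A17, which encodes a receptor for lipocalin, had 0.12 (-0.07 to 0.32) and 0.12 by its other probe. Both probes had their highest value on array 4, at 0.39 and 0.41, and lay between -0.05 and 0.19 on the others. The organic anion carrier genes SLC22A7 and SLC22A6 had 0.10 and 0.09. SLC52A2, a riboflavin carrier, had 0.05, 0.22 and 0.09 by its probes. The middle value came from array values of 0.36, -0.46, 0.34 and 0.65 and had the widest interval of the 3, -0.12 to 0.56. Without array 2 this probe had 0.50 and passed the threshold, in a fit that called 2.86% of all probes. The brightest probe of the gene had 0.11 there. In that fit array 4 alone carries its dye orientation. On array 4 the probe called was also dimmer. Its mean log2 intensity relative to the median probe was 1.22 there, and 2.37, 2.34 and 2.78 on arrays 1 to 3.

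SLC44A4, a carrier of choline and thiamine pyrophosphate, had 5 probes, all above 0, from 0.01 to 0.10. SLC16A1, the lactate and pyruvate carrier MCT1, had -0.05 (-0.21 to 0.10) by its brightest probe and 0.004 and 0.11 by the others. The prostaglandin carrier gene SLCO2A1 had 0.05 and SLCO3A1 -0.05. The remaining members were SLC10A7 and SLC22A4 at 0.02 each, SLC22A2, an organic cation carrier, at 0.02, SLC19A2, a thiamine carrier, at 0.01, and SLC22A15 at -0.03. The scaffold genes SLC9A3R1 and SLC9A3R2 had 0.07 and 0.005.

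Over the 30 genes with several tested probes, 19 had fitted ratios of 1 sign (13 above 0, 6 below 0) and 11 had both. The gap between the highest and lowest probe of a gene had a median of 0.0678 and reached 0.221, for SLC11A1. It was thus of the same order as the ratios themselves, whose absolute values had a median of 0.0547.

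**Figure D3:**
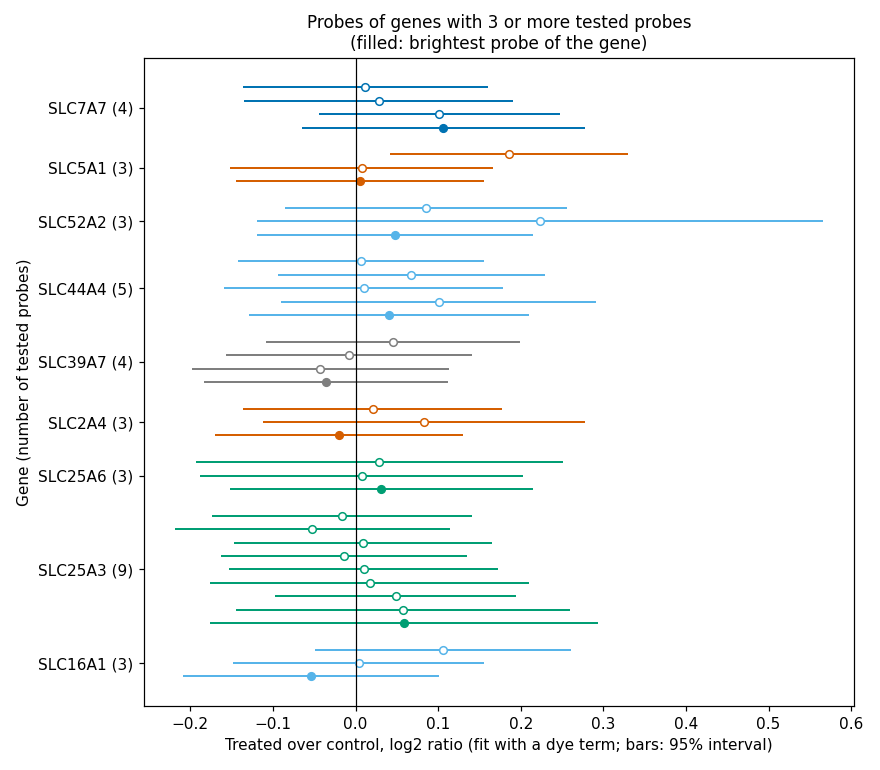
Fitted log2 ratio (x axis) of each tested probe of the genes with 3 or more tested probes (y axis, number in brackets), with 95% intervals as bars and the brightest probe filled. The 9 probes of SLC25A3 lie between -0.05 and 0.06, and the 3 probes of SLC16A1 on both sides of 0.

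The dye term varied more among the carriers than the treatment term did. The dye term, which is the mean red over green ratio, had an SD of 0.178 over the 56 genes and the treatment term one of 0.0755, beside 0.175 and 0.0726 over all named genes. For 42 of 56 genes the dye term was the larger in size. The widest were SLC39A7 at -0.46, SLC29A3 at -0.41, SLC16A1 at 0.37 and SLC25A6 at 0.36. Across the carriers, ratios of treated over control correlated at 0.708 and 0.522 between arrays of the same dye orientation and at -0.652 to -0.461 between arrays of opposite orientation. These values describe genes that share arrays and dyes, and the genes are not replicates.

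The labelling protocol is worded as if control cells were always labelled green and treated cells always red, without a swap. Read in that way the treatment term is the mean red over green ratio, and dye and treatment cannot be told apart. Then 12 of 105 probes (11.4%) passed the threshold, in a fit that called 8.99% of all probes, 5 above 0 and 7 below 0. Of the 56 genes 33 had the opposite sign. Those called by their brightest probe were SLC16A1 at 0.37, SLC25A6 at 0.36, SLC12A4 at 0.35, SLC30A5 at 0.27 and SLC25A43 at 0.23, and SLC39A7 at -0.46, SLC29A3 at -0.41, SLC10A7 at -0.28 and SLC30A7 at -0.25 (adjusted p = 0.00623 to 0.0488 by limma). Dimmer probes of SLC30A1, SLC39A7 and SLC44A4 had -0.22, -0.25 and -0.28. The other two probes of SLC16A1 had dye terms of -0.05 and -0.20, opposite to the brightest.

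**Figure D4:**
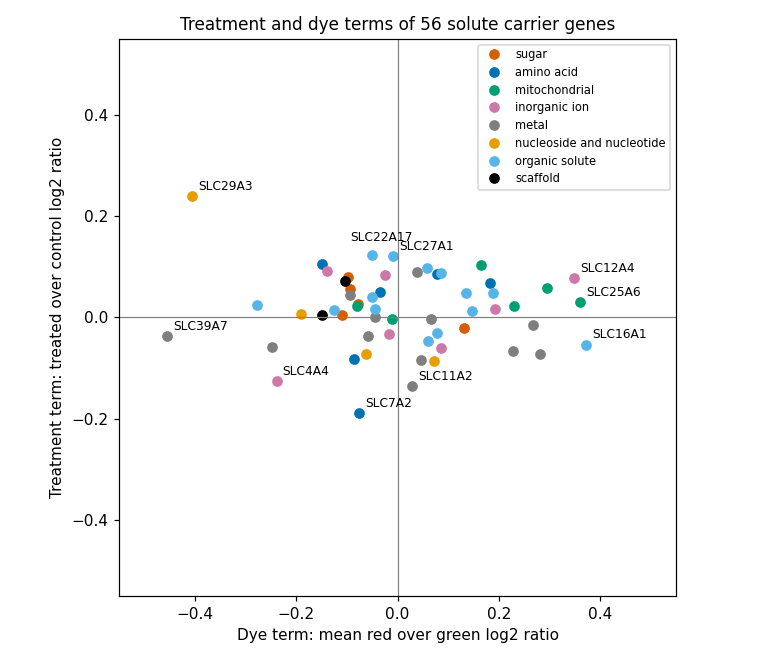
Treatment term (y axis) against dye term (x axis), both in log2 units on the same scale, for the 56 tested genes, coloured by transport class. The points spread more along the dye axis (SD 0.178) than along the treatment axis (SD 0.0755).

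The level of some carriers differed between arrays by far more than between treated and control cells of 1 array. For this description, chosen after the data were seen, the mean log2 intensity of both channels was taken relative to the median probe of the array. Over 55 of the 56 genes, those with 4 values, the range between arrays had a median of 0.353 (0.416 over named genes), and 5 genes (9.09%, beside 8.55% of named genes) had a range over 1 log2 unit. The same number had a range over 1 after quantile normalization. The widest was that of SLC29A3, with 1.23, 1.503, 3.40 and 3.49 on arrays 1 to 4, a 4.8-fold range, whereas treated and control cells of an array differed by at most 0.67. Its range was wider than that of 99.4% of named genes. It had a single probe.

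SLC7A1 had the opposite order, with 6.25 and 6.48 on arrays 1 and 2 and 5.55 and 5.06 on arrays 3 and 4, a 2.66-fold range. Only 1 of its 2 probes was detected, so no other probe bears on this range. SLC19A2, with a single probe, had 3.80, 4.21, 3.46 and 3.15, and SLC3A1 had -0.09, -0.55, -0.90 and -1.11. The other tested probe of SLC3A1 kept that order, from -0.65 on array 1 to -1.43 on array 4. SLC44A4 had 3.57, 3.85, 4.40 and 4.79. Its 2 other bright probes were also lowest on array 1 and had ranges of 0.98 and 1.22, while its dim probes had ranges of 0.16 and 0.28. For these 5 genes arrays 1 and 2 thus lay on 1 side of arrays 3 and 4. How many of all named genes split in this way was not counted. The split is therefore not shown to be particular to these carriers. Whether it follows the animals, the cultures or the hybridisation cannot be told apart, since the labels name none of them by array. Such differences cancel in the ratio within an array.

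**Figure D5:**
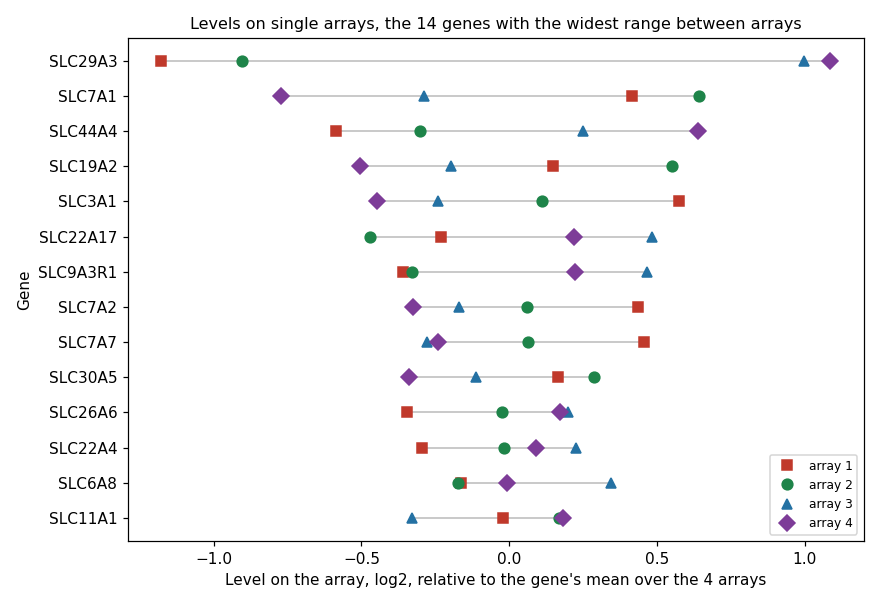
Level of each gene on the 4 arrays in log2 units, relative to the gene's own mean (x axis), for the 14 carriers with the widest range between arrays (y axis). For SLC29A3 arrays 1 and 2 lie far below arrays 3 and 4 (1.23 and 1.503 against 3.40 and 3.49 before centring), and for SLC7A1 they lie above them.

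Genes that work beside the carriers were described from lists of other transport and metabolic genes. For the sodium, proton and calcium pumps that maintain the gradients the carriers use, 3 of 6 tested genes were above 0 (median -0.01), with the sodium pump subunit gene ATP1B1 at -0.07 and the proton pump subunit ATP6V1H at 0.10. ABC transporters had 4 of 4 genes above 0 (median 0.03), from TAP1 at 0.01 to ABCG2 at 0.06, and their median ran from -0.02 without array 4 to 0.10 without array 2. Aquaporins and accessory proteins had 6 of 10 above 0 (median 0.01), from the clathrin heavy chain gene CLTC at -0.12 to UCP2 at 0.08, with BSG, the chaperone of MCT1, at -0.05. Their median was -0.06 without array 4 and 0.05 without array 2. Glycolysis and lactate genes had 3 of 8 above 0 (median -0.03), from HK2 at -0.07 to LDHB at 0.04. Genes of the amino acid response had 5 of 10 above 0 (median -0.01), from DDIT3 at -0.08 to GOT1 at 0.08, with NOS2, whose product uses arginine, at -0.08. With median centring the medians of the pump, glycolysis and amino acid response lists were above 0, at 0.05, 0.05 and 0.05. In these lists 0 of 38 tested genes passed the threshold by limma, where 0% of all tested probes did. An unadjusted p under 0.05 was had by 0 of the 38. Among all named genes 1.12% were above 0 and 0.971% below 0 at that limit. With so small a share, a count of 0 does not set these lists apart.

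Marker genes of cell types were looked up by the same detection rule, by which 80.6% of all named genes were detected. All 12 matched genes of anterior pituitary hormones, their receptors and granules were detected. Markers of other cell types were detected too: 4 of 5 for macrophages, 3 of 4 for endothelium, 2 of 2 for fibroblasts and pericytes, 2 of 2 for folliculostellate cells, 2 of 3 for the posterior lobe and nerve, 2 of 6 for lymphocytes and the single matched red blood cell gene. With so few genes beside that share, these counts do not tell which cell types were present. The median ratios were -0.07 for the pituitary list, -0.01 for endothelium, 0.02 for fibroblasts and pericytes and -0.06 for folliculostellate cells. They were 0.07 for the posterior lobe and nerve, 0.001 for lymphocytes and 0.04 for HBE1 of red blood cells. Of the endothelial genes CDH5 had 0.03, PECAM1 -0.01 and SELP -0.23 (adjusted p = 0.9999 by limma), so SELP does not stand for the list. The part of these cell types in the carrier ratios was not tested.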

How the data were processed

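Agilent Feature Extraction 10.7.3.1 read the arrays (design 026440), per the file headers. Each deposited scanner file gives linear intensity values and flags (other columns, 0 or 1) for every spot and, per the file headers, the log10 of the red to green ratio. The authors' deposited value table is in log2 units: 99.9% of its probes lay within 0.01 of the treated over control log2 ratio of the scanner software's processed intensities. Its direction follows the channel labels, its column medians were -0.04, 0.08, 0.04 and -0.05, and how it was centred is not given in the sources used here.

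Median intensities were background-corrected by normexp (offset 50), then loess-normalized per array, control spots having no weight. Spots with foreground outlier flags (29 to 45 of 43803 per array) or uneven background (939 to 1350) were left out, and none was saturated. A probe was tested if well above background for treated or for control cells on at least 3 arrays, with at least 3 values (25918 of 43603). Each channel had 25097 to 29738 probes well above background, and the number of arrays, 4, limits the precision. limma 3.58.1 (R 4.3.3) fitted a treatment and a dye term with eBayes, two-sided, and p-values were adjusted by Benjamini-Hochberg over all tested probes at 0.05. The steps were tested on simulated data.

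RefSeq Sscrofa11.1 served for symbols only, by accession without version (5578 probes named). Named are the 16 carriers with the smallest p, the 2 highest and 2 lowest of each class, a set of 25 well-known carriers, of which 17 had no probe matched and were not analysed here, and genes with 3 or more probes. Other tested carriers were added, and some genes are counted but not reported by name here. The members, classes and lists were chosen with earlier results of these data known. Alternatives to the background step, normalization, filters, dye term and probe choice, and fits without each array, were run.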

Additional observations from a re-analysis of the deposited data

Results flagged for a closer look

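Array values of 69 carrier genes and gene groups were searched for a lone extreme. SLC22A4, a carrier of organic cations and ergothioneine, was the 1 found, with 0.3561 on array 4 and -0.13 to -0.07 on arrays 1 to 3. About 1 in 20 results (3.4 here) would be picked by chance if the 4 values were one normal sample. These values still hold the dye difference, and the groups share genes with the single results, so that rate may not apply. Its fitted ratio was 0.02, and its dimmer probe had -0.02 from 3 arrays.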

How the results depend on the processing

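The count of 0 carrier probes past the threshold held under every alternative except 2. It was 12 (11.4%, beside 8.99% of all probes) if treated cells are read as red on all arrays. With 1 array left out it ran from 0 to 2. The 2 (SLC29A3 and a probe of SLC52A2) came without array 2, where 2% of carrier probes and 2.86% of all probes passed. Without array 4 it was 0, beside 3.31% of all probes. The 4 probes with an unadjusted p under 0.05 became 7 without the offset and 7 with the authors' value table, 1 with median centring, 2 with separate channels, 2 without a dye term, 2 with both channels well above background on all arrays and 35 with treated cells read as red throughout. They ran from 0 without array 3 to 17 without array 2, with 1 without array 1 and 7 without array 4. The share of all tested probes under this limit moved too. From 2.77% in the main fit it became 3.67% without the offset, 3.95% with the authors' value table and 0.725% with median centring. It was 2.98% with separate channels, 0.779% without a dye term and 2.47% with both channels well above background. With treated cells read as red throughout it was 28%. Without arrays 1 to 4 in turn it was 0.943%, 14.2%, 1.27% and 12.2%. The median ratio of the carriers, 0.02, was 0.051 with median centring, which moved the median of all probes to 0.03, -0.013 with treated cells read as red throughout, and -0.0030 (without array 4) to 0.031 (without array 2) with 1 array left out. With treated cells read as red throughout, the class medians were -0.055 for amino acid, 0.033 for metal and 0.20 for mitochondrial carriers. They were -0.13 for nucleoside and -0.093 for sugar carriers. In that reading SLC10A7 (-0.28), SLC16A1 (0.37), SLC29A3 (-0.41) and SLC30A5 (0.27) passed the threshold with the opposite sign. With 1 array left out the inorganic ion median ran from -0.053 to 0.081, the organic solute median from -0.012 to 0.12, the amino acid median from 0.0044 to 0.078, the nucleoside median from -0.077 to 0.026, the mitochondrial median from 0.013 to 0.061, the sugar median from 0.0080 to 0.045 and the metal median from -0.042 to -0.023. The glycolysis median, -0.03, was 0.0060 with the scanner's log ratio, 0.016 with the authors' value table, 0.051 with median centring, -0.0018 with uneven background kept, and -0.044 to 0.0068 with 1 array left out, and the pump median was 0.046 with median centring. The causes were not tested. Of 888 gene values under these alternatives, 805 moved by less than the SD between arrays. Many of them could hardly do otherwise. Separate channels, no dye term and other filters keep the same array ratios. Leaving out 1 array shifts a gene with 4 values by less than that SD by construction. The count is thus no measure of robustness. Each array is itself a pair of treated and control RNA, so the ratios are paired by array. With the channels fitted separately and the array as a block (correlation 0.728), 0 carrier probes passed the threshold too. Low signal over background limits the dim probes, among them those of SLC7A2, SLC25A25 and SLC4A4.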
